A study of Homo sapiens with 7 samples.

Results

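The p53 pathway and cell-cycle brake genes described here are MDM2, CDKN1A, CDKN1B, CDKN2A, CDKN2B, BAX, BBC3, GDF15 and SESN1. They were chosen by name, as every row of the expression table whose gene field holds 1 of these 9 symbols, which gave 11 rows of 30032. MDM2 and CDKN2B have 2 rows each, and CDKN2A and CDKN2B are listed with the same coordinates, so the 9 genes lie in 8 listed loci. All samples are from HepG2, a human liver cancer cell line, grown without a treatment that the labels name. The series has 7 samples, 1 for each assay. They are an RNA-Seq sample, a native MNase-Seq sample for nucleosome positions and a ChIP-Seq sample for each of the histone marks H3K27ac, H3K9ac, H3K4me3, H3K9me3 and H3K27me3. No assay was repeated and there is no other condition, so nothing was tested across samples and no P value is given.

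The transcription factor p53 is kept low by MDM2, a ubiquitin ligase that is itself a p53 target gene, so that the 2 form a feedback loop. Stress frees p53, which then raises CDKN1A (p21, an inhibitor of cyclin-dependent kinases), BAX and BBC3 (PUMA), which act in mitochondrial cell death, SESN1 (sestrin, an inhibitor of mTORC1 signalling) and GDF15, a secreted stress cytokine. CDKN1B (p27) restrains cyclin-dependent kinases at the entry to S phase. CDKN2A encodes p16 and, from a separate start and reading frame, ARF, an inhibitor of MDM2, and its neighbour CDKN2B encodes p15. H3K4me3, H3K9ac and H3K27ac mark active promoters, H3K27me3 marks genes held by Polycomb and H3K9me3 marks heterochromatin.

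The RNA-Seq table gives FPKM, fragments per kilobase of transcript scaled to the size of the library, in 2 columns, here called run 1 and run 2. They add up to 857059 and 982212. No source used here says whether the columns come from different cultures, so their spread may be technical. Peak lists hold no read counts, so the depth behind a peak is unknown. All 319086 peaks carried the identifier of a listed nucleosome position of 140 bp, which they exceeded by 3 bp on either side. At least 1 mark was on 1.43% of the 14217405 positions in the genome. The paper reports a larger share of nucleosomes with a modification, and why the deposited lists hold fewer was not tested. The labelled cell line was checked against marker genes. ALB, encoding albumin, reached 9933 (run 1) and 10088 (run 2), and all 7 hepatocyte markers analysed (ALB, APOA2, APOB, TTR, AFP, FGB and SERPINA1) had a mean FPKM of at least 56.6. A further planned marker, APOA1, was left out, since it has rows on both strands and no strand in the promoter table. PTPRC and CD3E of leukocytes were listed at 0, and the 3 endothelial (PECAM1, VWF and CDH5) and 3 fibroblast markers (COL1A1, COL3A1 and DCN) were at most at 0.693. CD68 is in a row of several genes at 543 and was not read as a marker, and of the cholangiocyte markers KRT19 had 110, SOX9 39.8 and KRT7 0.109.

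Promoter sequences are shown for the genes at both ends of the range of trivalent positions described further on. The trivalent combination, H3K4me3/H3K9ac/H3K27ac on the same nucleosome position, is called "T" here. CDKN1B and SESN1 had the most "T" near the listed start, and BBC3, GDF15, CDKN2A and CDKN2B had none. The listed start is an end of the locus in the expression table, and for none of the 9 genes was it matched to a RefSeq start. For CDKN2A and CDKN2B it is not the gene's own start, and 3 of the 4 "T" at SESN1 lie nearer to the listed start of CEP57L1. The sequences are the 250 bases before the start that RefSeq gives, in the direction of transcription, from build GRCh38.p14. The peaks are on hg19, so no peak was placed on these letters. Capitals mark the TATA box (TATAAA), the CCAAT box, the GC box (GGGCGG) and the E-box (CACGTG), searched on both strands, and the upstream CDKN2A promoter holds none of them.
CDKN1B, chr12:12717118-12717367, plus strand: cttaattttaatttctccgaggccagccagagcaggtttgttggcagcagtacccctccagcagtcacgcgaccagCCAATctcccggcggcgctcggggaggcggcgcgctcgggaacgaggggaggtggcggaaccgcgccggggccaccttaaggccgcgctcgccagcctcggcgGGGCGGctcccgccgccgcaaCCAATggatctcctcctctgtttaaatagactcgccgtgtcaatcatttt
SESN1, chr6:109094847-109095096, minus strand: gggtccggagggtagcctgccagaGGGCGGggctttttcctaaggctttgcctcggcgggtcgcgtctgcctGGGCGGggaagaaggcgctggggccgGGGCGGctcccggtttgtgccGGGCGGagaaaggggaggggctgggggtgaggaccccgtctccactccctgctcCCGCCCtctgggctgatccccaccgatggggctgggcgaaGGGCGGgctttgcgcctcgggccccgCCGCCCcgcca
BBC3, chr19:47232668-47232917, minus strand: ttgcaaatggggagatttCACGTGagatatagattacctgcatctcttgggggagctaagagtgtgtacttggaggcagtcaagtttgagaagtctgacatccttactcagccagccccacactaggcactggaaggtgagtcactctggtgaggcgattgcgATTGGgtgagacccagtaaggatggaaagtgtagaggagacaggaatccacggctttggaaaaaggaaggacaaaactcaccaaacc
GDF15, chr19:18385908-18386157, plus strand: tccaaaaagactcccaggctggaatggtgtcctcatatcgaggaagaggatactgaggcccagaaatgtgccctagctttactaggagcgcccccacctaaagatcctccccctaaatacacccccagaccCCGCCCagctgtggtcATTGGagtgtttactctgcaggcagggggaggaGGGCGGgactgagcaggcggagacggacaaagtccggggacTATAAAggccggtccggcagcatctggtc
CDKN2A, start farther upstream, chr9:21995325-21995574, minus strand: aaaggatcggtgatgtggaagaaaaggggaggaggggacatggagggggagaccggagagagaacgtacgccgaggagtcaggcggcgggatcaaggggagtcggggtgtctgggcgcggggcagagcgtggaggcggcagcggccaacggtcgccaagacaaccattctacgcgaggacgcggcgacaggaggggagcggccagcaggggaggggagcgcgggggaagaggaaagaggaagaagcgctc
CDKN2A, start farther downstream, chr9:21974858-21975107, minus strand: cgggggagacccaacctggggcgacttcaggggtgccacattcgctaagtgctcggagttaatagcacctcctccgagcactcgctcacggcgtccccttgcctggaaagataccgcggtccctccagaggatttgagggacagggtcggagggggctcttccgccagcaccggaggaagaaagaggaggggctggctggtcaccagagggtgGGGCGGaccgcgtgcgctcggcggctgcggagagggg
CDKN2B, chr9:22009306-22009555, minus strand: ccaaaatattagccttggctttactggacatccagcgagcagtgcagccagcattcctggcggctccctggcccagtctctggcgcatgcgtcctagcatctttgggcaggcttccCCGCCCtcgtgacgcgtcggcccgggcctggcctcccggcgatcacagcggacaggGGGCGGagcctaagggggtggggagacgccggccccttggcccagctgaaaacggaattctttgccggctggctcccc

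These promoters differed in how many CG pairs they hold. CDKN1B held 27 pairs, SESN1 23, the upstream and downstream CDKN2A starts 24 and 20, and CDKN2B 18, against a median of 11.0 over the 35116 RefSeq promoters of this length. BBC3 held 4 and GDF15 9. The SESN1 promoter had 7 GC boxes and the CDKN1B promoter 1, and GC boxes were found in 42.6% of all promoters. GDF15 alone of the 9 genes had a TATAAA, a motif in 10.7% of promoters. The BBC3 promoter had 1 E-box, and that of BAX, not printed, had 4, while 6.34% of promoters had any. CCAAT, found in 32.0% of promoters, was present 2 times at CDKN1B, 1 time at BBC3 and GDF15 and not at CDKN2A or CDKN2B. RefSeq lists 4 starts for MDM2 and 3 for SESN1. The decamer consensus of p53 was matched in 5.57% of all promoters and, among the 15 entries of the 9 genes, in 1: the promoter of the SESN1 start farthest downstream holds GGACAAGTCT, which ends 39 bases before that start. Sites that depart from this consensus, or lie outside these windows, would not be found by the search.

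All 9 genes were expressed at an FPKM of at least 1 as the mean of both runs, a level that 51.4% of the 22065 named loci reached. GDF15 was at 241 in run 1 and 233 in run 2, the highest of the 9, and above 98.8% of named loci. BAX had 123 and 125. CDKN1A had 86.5 and 84.9. The arrest gene CDKN1A thus stood at 1.22 times the mean of its neighbour in the order, the p53 inhibitor MDM2. MDM2 had 69.9 and 70.2, and it too was above 90.2% of the named loci with an FPKM of at least 1.

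CDKN1B was listed at an FPKM of 34.1 and 34.5 and SESN1 at 32.0 and 33.4. Their means differed by 1.05 times, the closest pair of neighbours in the order. BBC3 had 10.1 and 9.46, below the median of 11.9 of the named loci with an FPKM of at least 1. The 2 death genes therefore stood far apart, BAX above 97.4% of named loci and BBC3 above 71.1%.

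The genes at chromosome 9 were the lowest. CDKN2A had 5.97 FPKM in run 1 against 4.96 in run 2. CDKN2B had 1.30 and 1.06, just above the limit for expression. In a bulk culture a low level in every cell and a higher level in few cells cannot be told apart. CDKN2A had 4.63 times the mean of CDKN2B. No 2 neighbours in the order of the 9 genes overlapped in their run values, but with 2 values per gene of unstated origin this is a description. Run 2 differed from run 1 by between -0.30 and 0.06 on the log2 scale. For the 11165 named loci at 1 or more in both runs, the 5th and 95th percentiles of this difference were -0.21 and 0.20. CDKN2A (-0.27) and CDKN2B (-0.30) lay outside that range, which was not matched for level. Other rows have the same listed coordinates. Among them MTAP had 21.9 in run 1 and 17.8 in run 2, and a CDKN2B row on the opposite strand changed by 0.51. The 2 differences are thus not separate observations of 2 loci.

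**Figure D1:**
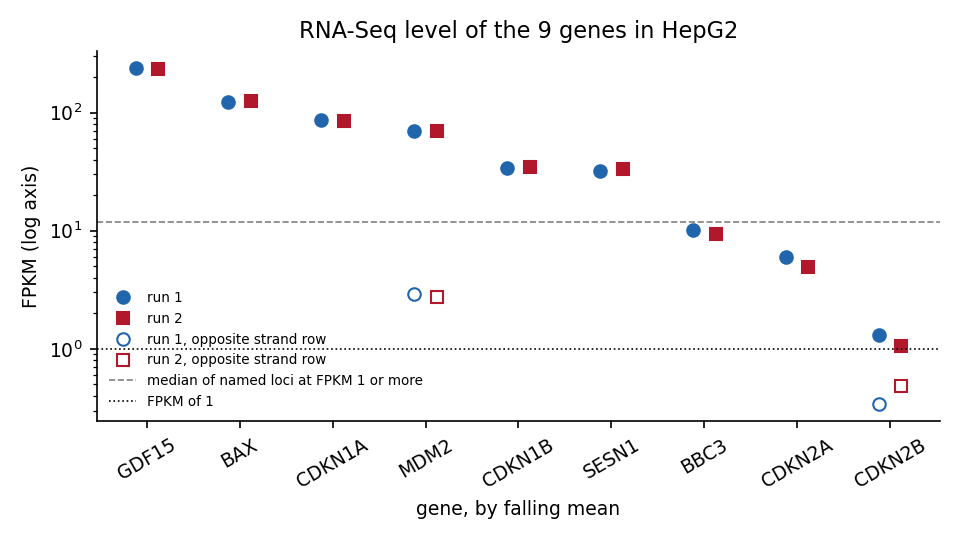
FPKM of the 9 genes in run 1 (circles) and run 2 (squares) of the HepG2 RNA-Seq table, on a log axis; open symbols are the rows of MDM2 and CDKN2B on the opposite strand. GDF15 is the highest, at 241 and 233, and CDKN2B the lowest, at 1.30 and 1.06, with the dashed line at 11.9.

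The further rows of MDM2 and CDKN2B carry the same symbol on the strand opposite to the gene. The row at the MDM2 locus had an FPKM of 2.92 and 2.75, or 4.05% of the MDM2 row. The row at the CDKN2B locus had 0.339 and 0.482, or 34.8% of the CDKN2B row. The kit named in the labels is not stated to keep the strand, so reads of overlapping transcripts may not be told apart. The levels above are those of the row on the strand that RefSeq gives the gene. The listed loci of GDF15 and BBC3 are shared with the microRNA genes MIR3189 and MIR3190. MIR3189 was listed at 0 in run 1 and 2229 in run 2, so its value rests on run 2 alone.

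The 8 loci with 10 kb added on either side held 3401 nucleosome positions, of which 161 were marked, or 4.73% (exact Clopper-Pearson 95% interval 4.04 to 5.50, for counting error only). H3K4me3 was on 115 of them, H3K9ac on 96 and H3K27ac on 81. H3K27me3 was on 6 and H3K9me3 on 9. All 9 genes had H3K4me3, H3K9ac, H3K27ac and "T" in their window, which 73.7%, 73.7%, 67.9% and 63.2% of named loci also had. H3K27me3 was found only in the window that CDKN2A and CDKN2B share, so in 2 of the 9 genes and 1 of 8 loci, against 31.2% of named loci. H3K9me3 was found in the windows of CDKN1B, GDF15, SESN1 and the CDKN2A/CDKN2B pair, so in 5 of the 9 genes and 4 of 8 loci, against 31.9% of named loci. These counts of windows depend on window length. By position, H3K9me3 was on 0.265% of the 3401 (0.121 to 0.502), and 0.243% of all positions in the genome lies within that interval.

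By exact combination, "T" was the most frequent at the 8 loci, with 49 positions or 30.4% of the marked ones (23.4 to 38.2), followed by H3K4me3 alone with 38, or 23.6% (17.3 to 30.9). In the genome "T" made up 21.0% of the marked positions and H3K4me3 alone 11.5%. H3K4me3/H3K9ac was at 25, H3K9ac/H3K27ac at 18, of which 11 were in the BAX window, and H3K27ac alone at 12. The windows hold gene starts by construction, which most positions of the genome do not, so these shares are set side by side without a test.

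**Figure D2:**
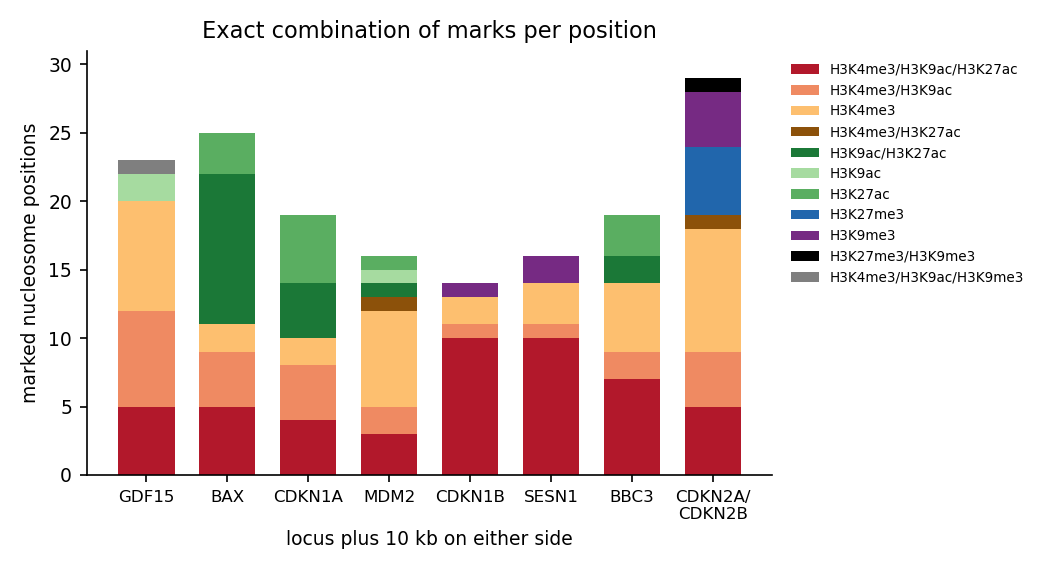
Number of marked nucleosome positions by exact combination of marks over each of the 8 listed loci plus 10 kb, with genes by falling FPKM. "T" (dark red) makes up 10 of 14 positions at CDKN1B and 10 of 16 at SESN1, and H3K27me3 (blue) is seen only at CDKN2A/CDKN2B. The counts include positions nearer to the listed start of another gene.

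The loci differed in how densely they were marked and in how much of it was "T". The BAX window had 25 marked positions of 132, or 18.9% (12.6 to 26.7), and the GDF15 window 23 of 164 (interval 9.10% to 20.3%). BBC3 had 19 of 157, CDKN1A 19 of 169 and CDKN1B 14 of 128, which is from 10.9% to 12.1%. The longer windows were sparser, with 16 of 301 at MDM2 (5.32%), 16 of 648 at SESN1 (2.47%) and 29 of 1702 at CDKN2A/CDKN2B (1.70%, 1.14 to 2.44). "T" was 71.4% of the marked positions at CDKN1B (41.9 to 91.6) and 62.5% at SESN1 (35.4 to 84.8). At BAX it was 5 of 25 (6.83% to 40.7%), at GDF15 21.7%, at CDKN1A 21.1%, at MDM2 18.8% and at CDKN2A/CDKN2B 17.2%. BBC3 lay between, with 36.8% (16.3 to 61.6). Counted by positions nearest to the gene's own listed start, "T" was on 7 of 13 marked positions at SESN1 and 5 of 21 at GDF15. It was on 4 of 8 at CDKN1B, 4 of 14 at BBC3 and 4 of 19 at CDKN1A. BAX had 3 of 4, MDM2 3 of 16, and CDKN2A and CDKN2B 0 of 17. The order of the shares thus depends on whether positions nearer to other starts are counted, and BAX was the highest without them. At CDKN1B, 6 of the 10 "T" in the window lie nearer to another start.

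"T" was counted within 2 kb of the listed start, the end of the locus that comes first on the gene's strand. For none of the 9 genes was this end matched to a RefSeq start, so it may lie away from where the gene's transcripts begin. It was found at 5 of the 9 genes, which compares with 41.6% of named loci and 71.6% of the 11352 named loci with an FPKM of at least 1. CDKN1B and SESN1 had 4, BAX 3, CDKN1A 2 and MDM2 1. GDF15 and BBC3 had 0, and so did CDKN2A and CDKN2B, whose listed start is that of a locus of 318511 bp and not their own. Within 5 kb BBC3 gained 1. At CDKN1B, CDKN1A, BAX and MDM2 all of these "T" lay downstream of the listed start, which is inside the locus. At SESN1 all 4 lay upstream of it, outside the locus. On which side of a RefSeq start they lie was not tested.

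**Figure D3:**
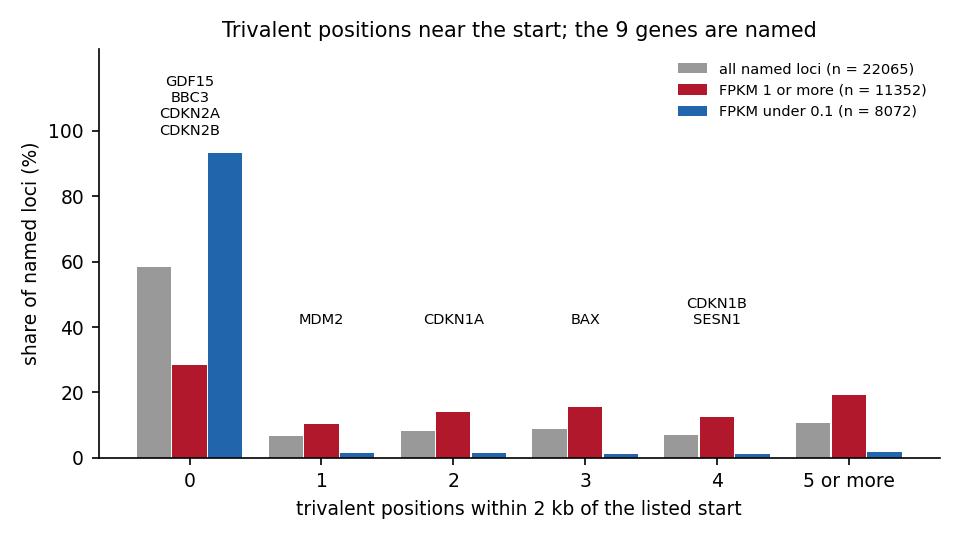
Share of named loci (bars, in %) by the number of trivalent positions within 2 kb of the listed start, for all named loci, those at an FPKM of 1 or more and those under 0.1. The 9 genes are written above their number; 4 of them stand at 0, as do 28.4% of the loci at an FPKM of 1 or more and 93.2% of those under 0.1.

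CDKN1A, listed on chromosome 6 from 36644171 to 36655163 (hg19, as the submitters' processing notes give the build), carried 18 of its 19 marked positions in a stretch from 36643802 to 36648466. A stretch here is a set of marked positions with at most 2 kb between neighbouring starts. Of its first 10 marked positions, all with H3K27ac, 2 carried H3K4me3. The positions starting at 36643802, 36645287, 36645437 and 36646087 carried H3K27ac alone. The 4 that start at 36644017, 36644447, 36644792 and 36645162 carried H3K9ac/H3K27ac. "T" stood among them at 36644272 and 36644932 and again at 36646572 and 36646942. From 36647172 on, 4 positions carried H3K4me3/H3K9ac and then 2 carried H3K4me3 alone. Thus 8 of the 18 had acetylation and no H3K4me3, and the last 6 had no H3K27ac. The 9 positions from 36643802 to 36645576 were neighbours in the nucleosome list and were all marked.

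At MDM2, on chromosome 12 from 69198619 to 69241313, 13 of 23 positions from 69198757 to 69204911 were marked, all with H3K4me3. Of these, 7 carried H3K4me3 alone, and 3 were "T", at 69199045, 69202252 and 69202842. The 2 later ones lie 3.7 and 4.3 kb into the locus. The RefSeq starts of MDM2 were not placed on hg19, so whether these 2 lie at a start or within the gene was not tested. H3K27ac was on 4 of the 13. Near the far end a position at 69239917 carried H3K9ac alone. Beyond the end, in the locus of CPM (FPKM 0.681 and 0.693), the position at 69243777 carried H3K9ac/H3K27ac and the one at 69244007 H3K27ac.

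The 2 cell death genes had different layouts. BAX is listed on chromosome 19 from 49458076 to 49465055. Its listed start was followed by 3 "T", at 49458197, 49458592 and 49458754, and H3K4me3 alone at 49459007, and these 4 were neighbours in the list. Of the 25 marked positions in its window, 20 formed an unbroken run from 49465237 to 49470086, beyond the end of BAX. All 20 lie nearest to the listed start of FTL at 49467114, a gene that encodes ferritin light chain and had an FPKM of 8005 and 8119. In that run 11 positions were H3K9ac/H3K27ac. BAX itself, counted by positions nearest to its own start, therefore had 4 marked positions, 3 of them "T".

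BBC3 lies on the minus strand of chromosome 19, from 47724078 to 47736249. Of the 19 marked positions in its window, 14 lay inside the locus. From the listed start downstream, they began with H3K27ac alone at 47734932 and H3K9ac/H3K27ac at 47734664. They were followed by H3K4me3/H3K9ac at 47733424 and 47733297 and by H3K4me3 alone at 47732987 and 47731767. The 7 "T" positions lay deeper, from 47731617 down to 47729587, and 4 of them from 47729587 to 47730241 were neighbours, with H3K4me3 alone at 47731147 among the 7. That places "T" between 4563 and 6593 bp downstream of the listed start, and the 3 farthest lie nearer to the other end of the locus, where MIR3190 (FPKM 0.528 and 0.481) is read from. Of the other 5 positions, 3 lay upstream of the listed start, with H3K9ac/H3K27ac at 47744087 and H3K4me3 alone at 47744277 and 47744597. The remaining 2, at 47714212 and 47714387 beyond the other end of the locus, carried H3K27ac alone.

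**Figure D4:**
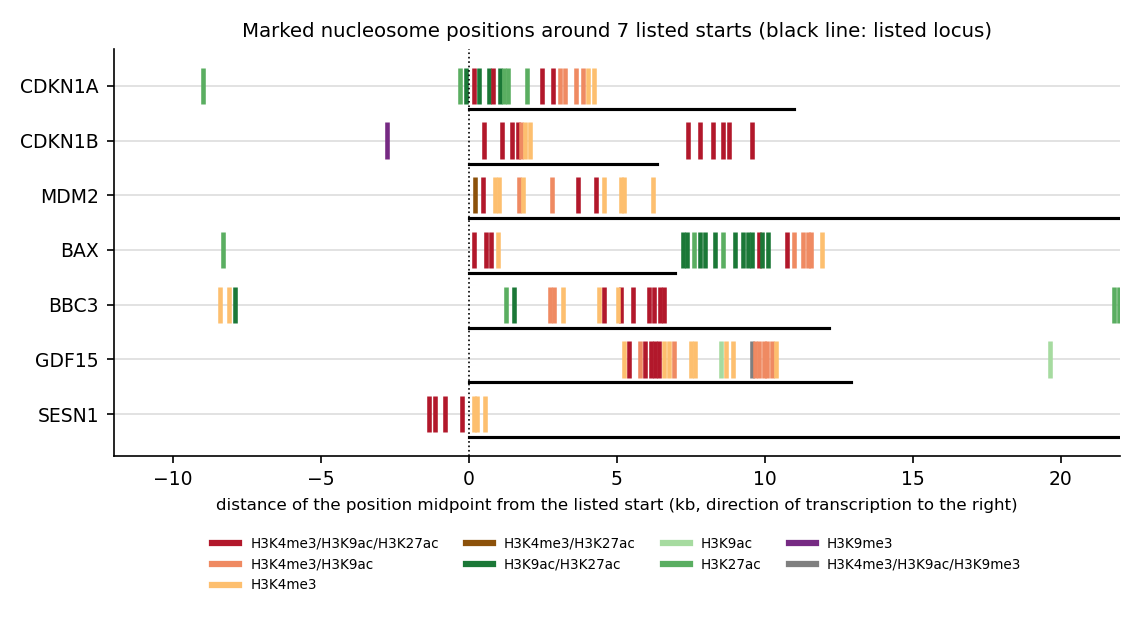
Marked nucleosome positions (vertical bars, coloured by exact combination) by distance of their midpoint from the listed start in kb, for 7 of the genes; the black line is the listed locus, and the inner stretch of SESN1 and the far end of MDM2 lie outside the plotted range. "T" (dark red) follows the listed start closely at CDKN1B and BAX, lies upstream of it at SESN1, and lies more than 4 kb downstream of it at BBC3 and more than 5 kb at GDF15.

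GDF15 is listed on chromosome 19 from 18487747 to 18500671, with no marked position in the first 5 kb. From 18492927 to 18498206, 22 of 27 positions were marked, and the first 10 were neighbours. "T" was at 18493102, 18493652, 18493847, 18493987 and 18494107. H3K27ac was on these 5 and on no other position of the stretch. Of the 15 positions of the stretch downstream of them, 14 carried H3K4me3, and 1, at 18496214, carried H3K9ac alone. From 18497364 to 18498064, 5 positions in a row carried H3K4me3/H3K9ac. The one before them, at 18497242, carried H3K4me3/H3K9ac/H3K9me3, the only one of the 161 with H3K9me3 beside an activation mark. The listed locus is shared with a microRNA gene, and which transcript begins at its listed start was not tested.

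SESN1 lies on the minus strand of chromosome 6, from 109307639 to 109415708, and had marks in 2 places. At the listed start, 3 positions inside the gene (109415092, 109415347 and 109415462) carried H3K4me3 alone. The 4 "T" positions on the other side, at 109415852, 109416440, 109416767 and 109416992, lead into the locus of CEP57L1, which begins at 109416196 on the opposite strand and had an FPKM of 3.90 and 5.08. Of these 4, 3 lie nearer to the start of CEP57L1. The other place is inside SESN1, from 109329822 to 109331311, between 84467 and 85817 bp downstream of the listed start. There 7 neighbouring positions were all marked, 6 with "T" and 1 with H3K4me3/H3K9ac. Of the starts that RefSeq lists for SESN1, the other two lie 85294 and 85858 bp downstream of the first in build GRCh38.p14, and the latter is the one with the p53 decamer. Both distances were measured within that build, and the peaks were not placed on it. H3K9me3 alone was at 109338737 and at 109301547. The FPKM of 32.7 is for the locus as a whole and does not separate transcripts by their start.

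CDKN1B, on chromosome 12 from 12869318 to 12875668, had 7 of 8 positions marked from 12869757 to 12871476. "T" was at 12869757, 12870384, 12870702 and 12870912, followed by H3K4me3/H3K9ac at 12871024 and H3K4me3 alone at 12871162 and 12871337. H3K27ac thus ended first and H3K4me3 last along the gene. A further 6 "T" stood beyond the end of the gene, from 12876650 to 12878966, with no other combination among them. They lie nearest to the listed start of APOLD1 at 12878850, whose FPKM was 0.0511 and 0.0903, and of MIR613, listed at 0. An H3K9me3 position lay upstream, at 12866487.

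CDKN2A and CDKN2B share a listed locus on chromosome 9, from 21802586 to 22121097, with MTAP, a methionine salvage enzyme gene at an FPKM of 21.9 and 17.8, and C9orf53, listed at 0. All 5 "T" positions of the window were at its lower end, in a stretch from 21802197 to 21804011, nearest to the listed start of MTAP on the plus strand. H3K27ac, on 6 positions, was found only in that stretch. The 17 marked positions nearer to the other end of the locus, where the CDKN2A and CDKN2B rows are read from, held no "T" and no H3K27ac. H3K4me3 was alone on 9 of them and with H3K9ac on 2, H3K27me3 was alone on 4 and with H3K9me3 on 1, and H3K9me3 was alone on 1.

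Apart from an H3K4me3/H3K9ac position at 21965504, the H3K4me3 of this end stood in 3 short groups. The group from 21994177 to 21995566 held 5 positions, all with H3K4me3 alone. The group from 22008570 to 22009656 held H3K4me3 alone at 22008570 and 22009517 and H3K4me3/H3K9ac at 22008860. The third, from 21973897 to 21975156, held H3K27me3 at 21973897 and H3K4me3 alone at 21974862 and 21975017. No position carried H3K4me3 and H3K27me3 together. Which start each group covers was not assigned, since no annotation of hg19 was used here. In GRCh38.p14 the RefSeq starts of CDKN2A lie 13981 and 34448 bp downstream of that of CDKN2B.

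Inside the listed locus, H3K27me3 was found only from 21968277 to 21983091. Besides 21973897 it was at 21968277, at 21968394 together with H3K9me3, and at 21982952. The others were at 21796582 and 22130972, outside the listed locus. In all, 6 of 1702 positions of the window carried it, or 0.353% (0.129 to 0.766), beside 0.185% of all positions in the genome, which lies within that interval. This share is over the whole window of 339 kb and does not describe how dense H3K27me3 was where it stood inside the locus. H3K4me3 was on 19, or 1.12% (0.673 to 1.74), beside 0.603%. H3K9me3 was on 5, or 0.294% (0.0955 to 0.684), beside 0.243%.

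**Figure D5:**
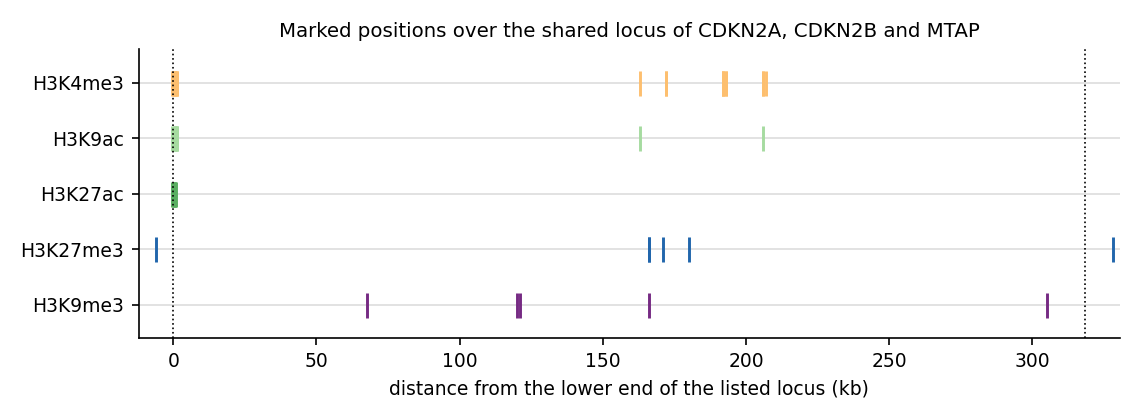
Positions with each of the 5 marks over the locus that CDKN2A and CDKN2B share with MTAP, by distance from its lower end in kb; dotted lines are the listed ends. H3K27ac is seen only at the MTAP end, while the groups of H3K4me3 from 163 to 207 kb have none.

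The other genes of the pathway were taken as 7 lists with 66 genes, of which 65 were analysed. TP53INP1 has a row on each strand and no strand in the promoter table, so it was left out. An FPKM of at least 1 was found for 59 of the 65, beside 51.4% of named loci, with a median of 14.4. "T" within 2 kb of the listed start was found at 52, beside 41.6% of named loci and 71.6% of those with an FPKM of at least 1. H3K27me3 there was found at 3, beside 7.42% of named loci.

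All 8 regulators of p53 were expressed. USP7, a deubiquitinase of MDM2 and p53, had 52.7 FPKM (run 1) and 52.4 (run 2), and CHEK1, a checkpoint kinase, had 17.8 and 19.5. MDM4, the partner of MDM2 in restraining p53, was the lowest with 4.51 and 4.40, and ATR, a damage kinase, had 5.69 and 6.43. PPM1D, a phosphatase that dampens the response, and the kinase ATM had the most "T" of the list, 7 each.

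All 8 arrest targets were expressed and all 8 had "T" near the start. CCNG1, encoding cyclin G1, had a mean FPKM of 142 and GADD45A 44.2, and the lowest were GADD45B with 4.69 and SFN with 6.78. BTG2 had the most "T", 7. Of the 9 death targets analysed 8 were expressed. TP53I3, in a row shared with SF3B14, had 137 and 8 "T", and the death receptor gene TNFRSF10B had 63.0. PMAIP1 (NOXA) had 4.87, and TP53AIP1 had 0.0817 and no marked position within 2 kb. All 11 repair and metabolism targets were expressed. RPS27L had 143 and TRIAP1 71.3, DDB2 had the most "T" with 7, TIGAR had 6.39, and SESN3 was the lowest with 1.13. The sestrins thus differed, with SESN1 at 32.7, SESN2 at 11.6 and SESN3 at 1.13, and SESN3 had 1 H3K27me3 position and 0 "T" within 2 kb.

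Among the other brakes 6 of 7 were expressed. CDKN3 had an FPKM of 32.5 and RB1, the retinoblastoma gene, 21.4, while CDKN2D had 3.06. CDKN1C (p57) was listed at 0 in run 1 and 0.0399 in run 2, with no marked position within 2 kb. The inhibitors of the family of CDKN1A were thus at 85.7, 34.3 and 0.0199 for CDKN1A, CDKN1B and CDKN1C. RBL2 had the most "T" of that list, 7. Of the kinases, cyclins and E2F factors on which the brakes act, 12 of 13 were expressed, led by CDK4 with 115 and CCND1 with 86.8. E2F2 had 2.89 and CCND2 0.278, the latter with no marked position within 2 kb. CDK6 had 11 "T", the most of any gene in the 7 lists.

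Of the 9 other BCL2 family genes 6 were expressed. The anti-death genes MCL1 and BCL2L1 had an FPKM of 65.5 and 63.4, and BCL2L1 had the most "T", 6. BCL2 had 0.171 and HRK, a BH3-only gene, 0.126. Both had marks near the start but 0 "T". HRK carried H3K27me3 at 3 of 4 marked positions. BAD had 11.3 with H3K27me3 at its only marked position there, in a locus shared with other rows.

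The arrangement of marks within 10 kb of the listed start was compared with that of 13387 named loci that have coordinates of their own, by the Jaccard index, the share of pairs of mark and 500 bp bin held in common. It rests on 5 assays of 1 cell line and is a description. CDKN1A was most like NR1H4 (0.70) and CDK6 (0.69), with FPKM of 36.5 and 26.9. CDKN1B was most like GCNT2 and PRR14 (0.65 each), and BAX was most like SLC23A2 (0.58) and PTP4A3 (0.57). For CDKN1B, BAX, SESN1 and BBC3 the 10 kb takes in marks nearest to other listed starts. These are the start of APOLD1 at CDKN1B, mostly that of FTL at BAX, that of CEP57L1 at SESN1 and that of MIR3190 at BBC3. SESN1, with 11 pairs, shared 10 with MTTP and 10 with LOC285456, whose FPKM were 29.8 and 0.0147. BBC3 was closest to NQO1 (0.59) and NKG7 (0.53), MDM2 to STIM2 and C1orf106 (0.52 each), and GDF15 to ZNF137P (0.59) and CCNI (0.55).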

How the data were processed

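HepG2 samples of 7 assays, 1 each, were used. According to the submitters' processing notes, reads were aligned to hg19, with BWA for MNase-Seq and ChIP-Seq. TopHat2 2.1.0, Bowtie and HOMER 4.7 are among the tools named for RNA-Seq. The authors called nucleosome positions with DANPOS and peaks at these positions with NUCLIZE, kept those with P and adjusted P no higher than 0.01 and a 4-fold or greater enrichment over input, and deposited coordinates and identifiers without heights or counts. The deposited RNA-Seq values are FPKM in 2 columns in the layout of Cuffdiff, and the annotation is not given in the sources used here. Columns with the authors' own comparison of the 2 columns were not used.

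Each peak marked the position whose identifier it carries. A position was in a window if its midpoint was. Peak coordinates are written with the first base as 1, and listed loci as the table gives them. Strand came from the order of locus numbering, which matched RefSeq for 99.4% of 8594 symbols with coordinates of their own and 95.2% of all 12947 compared. Named loci are those on chromosomes 1 to 22, X and Y with a symbol, a strand and a usable status. For genes with several rows, the row on the RefSeq strand was taken, and TIGAR was found under an older symbol. No test was run, since each assay has 1 sample. Intervals of shares are exact Clopper-Pearson 95% intervals. The counting was tested on simulated positions. Gene lists were compared by counts at an FPKM limit of 1, and the alternatives are given at the end. Named genes were all 9, and in each list the 2 highest and 2 lowest by mean FPKM, any with H3K27me3 within 2 kb of the start and the one with the most "T". A further gene of these lists is not reported here. The 9 genes, the lists and the rules were chosen with earlier results of these data known. Tools were matplotlib 3.10.9, scipy 1.17.1, pandas 2.3.3, numpy 2.4.6 and Python 3.11.15.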

Additional observations from a re-analysis of the deposited data

How the results depend on the processing

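Of 22 alternative counts, 20 stayed within 1.5 times the reported one. Of the alternatives for the level and percentile of single genes, 23 counted as moved and 22 as the same. The largest move of a percentile was 14.4 points. All 9 genes were expressed in run 1 alone, in run 2 alone and at a limit of 0.1, and 8 at a limit of 5. Only 4 of the 9 have a row with coordinates of its own (BAX, CDKN1A, CDKN1B and SESN1), so that setting gave 4. "T" anywhere over the locus plus 10 kb, an alternative added after the data were seen, gave 9 genes in place of 5. Of all named loci, 63.2% had "T" in that window. For CDKN2A and CDKN2B it lies nearest to the listed start of MTAP. Counted by positions nearest to the own listed start, 7 of the 9 genes had "T". Marked positions ranged from 112, with positions nearest to another start left out, to 195 with 20 kb added. H3K27me3 stayed in 2 of the 9 genes with 0, 5 and 20 kb added and with any overlap of at least 1 bp. The order of the 9 levels was the same in either run. A pseudocount of 1 in place of 0.01 on the log2 scale moved CDKN2B from 0.25 to 1.12, and restricting the comparison to loci above 0 lowered its percentile from 49.6 to 35.2. A stricter peak threshold could not be set, since the lists hold no scores, and RefSeq starts on hg19 were not used. Without read counts, a mark that was not called at a position cannot be told from one that was under the limit of detection. No paired analysis was possible because each assay has 1 sample.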
